A study of Mus musculus with 4 samples.

Results

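RNA levels of 34 genes of the p53 pathway were followed in C2C12 cells, a mouse myoblast line, given K97E or wild-type lamin A. The genes came from a named list of p53 itself, its feedback regulators and its known targets. The list was chosen with earlier results of these data known. All 34 symbols were found among the 55416 genes of the files, and 32 of them were among the 16304 genes tested. In the K97E group cells were transfected with 3 µg of DNA for K97E lamin A, which the labels call a mutant of dilated cardiomyopathy (DCM). In the wild-type (WT) group they received the same amount of DNA for wild-type lamin A. Both groups were transfected with Lipofectamine 2000 and harvested after 24 h, and each had 2 libraries. Lamin A forms filaments under the inner nuclear membrane. All 4 libraries therefore came from cells that had gone through lipid transfection with a lamin A construct, and untransfected cells were not analysed here. The labels call the samples biological replicates but do not say whether they were separate cultures, so the p-values reflect only how these samples vary, and that variation may be technical. The promoter of the construct, the species of its lamin A and the share of cells that took it up are not given in the sources used here. The titles of the K97E samples spell the line C1C12, and every other label spells it C2C12.

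The transcription factor p53, encoded by Trp53, is held low in unstressed cells by Mdm2, a ubiquitin ligase that marks it for degradation, and by Mdm4, a relative that blocks its activity. DNA damage and other stresses release p53, mostly by stabilising the protein and not by raising its mRNA. It then binds paired decamer elements near its target genes. Mdm2 is itself a target, which closes a feedback loop. Other targets halt the cell cycle, promote apoptosis, repair DNA or adjust metabolism and autophagy. Many of them also respond to factors other than p53. In myoblasts, p53 and its targets are also linked to the exit from the cell cycle that comes before differentiation.

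The 250 bases before the RefSeq transcription start were read for the members, from sequences of the GRCm38.p6 build. Of the 34 members, 27 had 34 promoter entries, since some have more than 1 start, and 7 had no entry (Ddb2, Perp, Pmaip1, Rrm2b, Trp53inp1, Xpc and Zmat3). An exact match to the p53 consensus decamer, which reads alike on both strands, stood in 9 of the 34 entries (26.5%), against 2341 of all 32851 entries (7.13%). The 9 entries belonged to Aen, Bax, Ccng1, Ei24, Gadd45a, Mdm2, Polk, Sesn1 and Trp53. A pair of decamers with up to 1 mismatch each and at most 13 bases between them stood in 1 member entry, that of Ccng1 (2.94%), against 724 of all entries (2.20%). A match is a description of letters in this window, and many known p53 elements lie outside it. Below are the windows of the member with the largest difference between the groups (Fas), of a member that was higher (Bax), of one that was lower (Gadd45a) and of the most abundant member (Ccng1). Capitals mark a decamer match, or the pair in Ccng1. The windows are chr19:34290409-34290658 (plus strand) for Fas, chr7:45466899-45467148 (minus strand) for Bax, chr6:67037408-67037657 (minus strand) for Gadd45a and chr11:40755287-40755536 (minus strand) for Ccng1, all in GRCm38.p6.
Fas: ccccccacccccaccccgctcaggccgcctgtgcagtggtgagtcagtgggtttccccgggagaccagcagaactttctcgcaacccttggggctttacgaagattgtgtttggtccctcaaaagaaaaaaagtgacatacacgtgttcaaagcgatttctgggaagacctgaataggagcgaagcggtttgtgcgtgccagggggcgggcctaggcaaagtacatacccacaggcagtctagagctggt
Bax: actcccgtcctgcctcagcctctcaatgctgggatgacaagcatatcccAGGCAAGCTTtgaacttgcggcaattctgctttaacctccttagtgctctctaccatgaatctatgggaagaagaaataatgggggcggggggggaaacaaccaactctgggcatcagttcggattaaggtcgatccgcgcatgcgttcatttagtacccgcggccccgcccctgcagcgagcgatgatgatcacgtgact
Gadd45a: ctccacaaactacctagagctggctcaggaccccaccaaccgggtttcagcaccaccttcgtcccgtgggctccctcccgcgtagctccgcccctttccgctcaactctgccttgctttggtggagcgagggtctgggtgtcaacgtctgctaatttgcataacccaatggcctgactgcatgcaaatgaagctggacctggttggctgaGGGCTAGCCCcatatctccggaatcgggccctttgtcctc
Ccng1: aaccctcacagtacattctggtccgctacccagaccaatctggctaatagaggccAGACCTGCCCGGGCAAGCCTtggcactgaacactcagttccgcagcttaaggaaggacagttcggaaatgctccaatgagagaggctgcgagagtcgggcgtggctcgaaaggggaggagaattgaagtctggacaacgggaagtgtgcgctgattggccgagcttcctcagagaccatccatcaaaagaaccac
The match in Bax began 201 bases before the start, that in Gadd45a 40 bases before it and the pair in Ccng1 195 bases before it. The Fas window held no match. Of these genes Fas and Gadd45a were lower in both K97E libraries than in both WT libraries, Bax was higher in both, and Ccng1 overlapped between the groups, as described below.

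Most of the pathway was expressed in these myoblasts. Levels are given as TPM, transcripts per 1000000, which correct for transcript length and can be compared between genes. In all 4 libraries 31 of the 34 members reached 1 TPM, and 7 reached 100 TPM. The means over libraries ran to 312 TPM for Ccng1, and Trp53 stood at 219 TPM, Phlda3 at 202 TPM, Bax at 189 TPM, Mdm2 at 168 TPM and Gadd45a at 164 TPM. At the low end Gdf15, a secreted stress cytokine, averaged 0.55 TPM. Perp, a membrane protein of desmosomes, and Pmaip1, the BH3-only protein also called Noxa, were listed at 0 in all 4 libraries and were not tested. Together the members held 0.222% and 0.198% of all TPM in the K97E libraries, against 0.196% and 0.209% in the WT libraries.

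**Figure D1:**
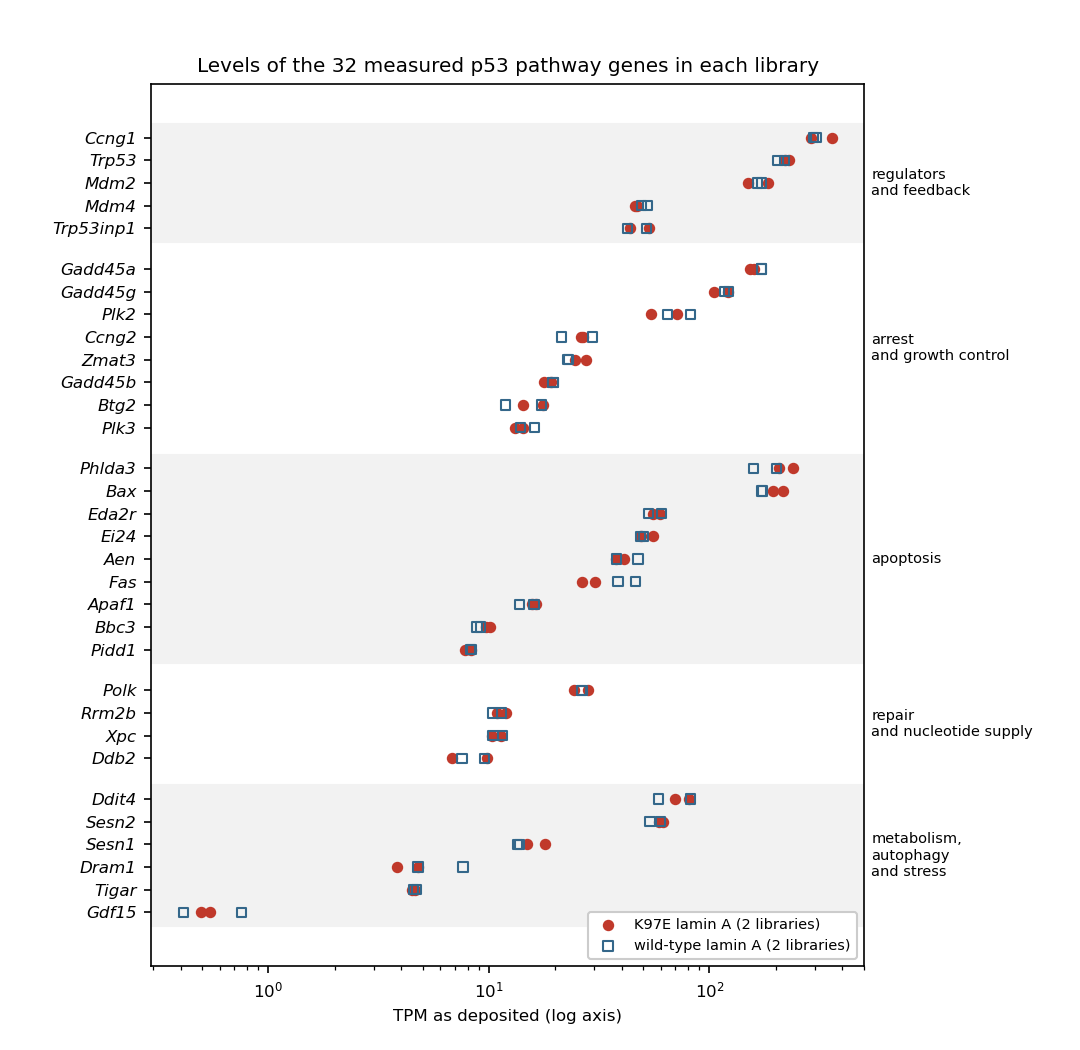
TPM of each of the 32 tested members (log axis), grouped by role and ordered by mean level within it, with K97E libraries as filled circles and WT libraries as open squares (2 each). Members span from Gdf15 at 0.55 TPM to Ccng1 at 312 TPM, and for most of them the symbols of the groups interleave.

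The libraries held an estimated 115600000 and 107800000 reads on transcripts in K97E cells, against 89600000 and 106400000 in WT cells. Mitochondrial transcripts took 5.55% and 5.29% of TPM in K97E cells, against 7.37% and 5.37% in WT cells. Lmna stood at 659.7 and 629 TPM in K97E cells, against 558 and 596 TPM in WT cells; reads from the construct cannot be separated from those of the cells' own gene, so Lmna does not check the labels.

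The comparison asked whether p53 pathway genes differed between K97E and WT cells. No member passed the test. With limma and Benjamini-Hochberg adjustment over 16304 genes, 0 of the 32 tested members had an adjusted p under 0.05, and the lowest adjusted p among them was 0.965. Over all genes 0.00613% were called higher and 0% lower. Without adjustment, 0 members were higher at p under 0.05, beside 1.14% of all genes, and 1 was lower (Fas), beside 2.54% of all genes. Fold changes are K97E over WT on the log2 scale of scaled TPM plus 0.5, a scale that shrinks the differences of genes near 0.5 TPM. By sign alone 14 members were higher and 18 lower in K97E cells. Their median log2 fold change was -0.05, beside -0.0017 over all genes tested, and single members ran between -0.62 (Fas) and 0.26 (Phlda3). With TPM as deposited the members' median was 0.0054, beside 0.052 over all genes tested. It was thus below the median of all genes on both scales. Since the RNA is from bulk cultures, fewer cells that express a gene and less of its RNA per cell cannot be told apart.

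Groups that do not overlap are those where both K97E libraries lie on the same side of both WT libraries. On the scaled values 4 members were higher in this way (12.5%, beside 16.3% of all genes), namely Phlda3, Bax, Zmat3 and Sesn1. On the same values 9 were lower (28.1%, beside 16.8% of all genes), namely Fas, Gadd45a, Gadd45b, Gadd45g, Mdm4, Dram1, Pidd1, Polk and Tigar. With TPM as deposited the balance between directions was the other way, at 6 higher (18.8%, beside 25.9% of all genes) and 4 lower (12.5%, beside 9.72%). Fas, Gadd45a, Gadd45b and Mdm4 were lower, and Phlda3, Bax, Zmat3 and Sesn1 higher, on both scales. The other non-overlapping members changed place with scaling factors of 1.04 and 1.00 in K97E and 0.98 and 0.98 in WT libraries.

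**Figure D2:**
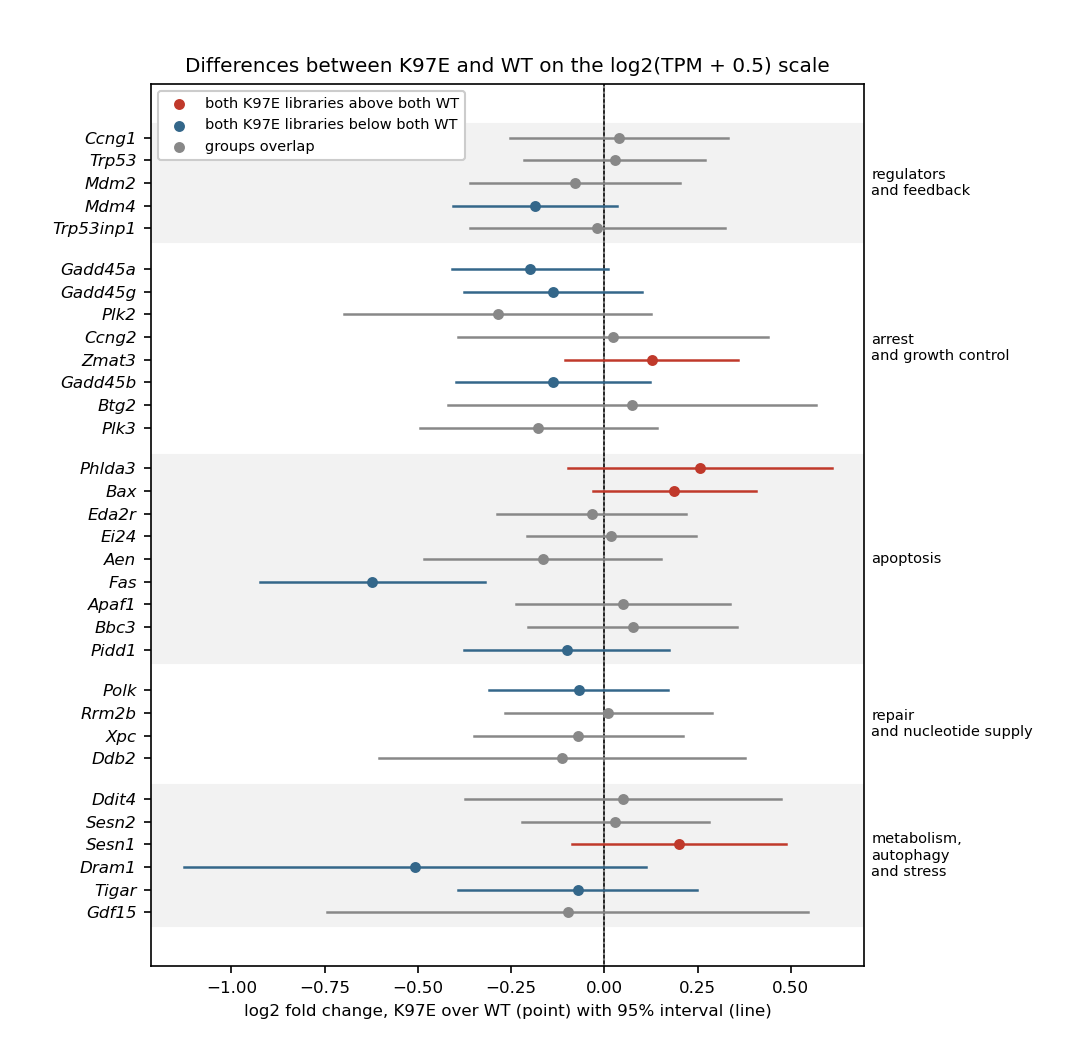
Log2 fold change of each tested member, K97E over WT (point), with its 95% interval from limma (line), grouped by role, coloured by whether the scaled values of the groups overlap. The interval of Fas, from -0.92 to -0.32, is the 1 that does not cross 0.

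Of the 5 regulators and feedback genes, all but Mdm4 had log2 fold changes between -0.08 and 0.04. Trp53 (ENSMUSG00000059552; GRCm39 chromosome 11, 69471185 to 69482699, plus strand) stood at 221 and 229 TPM in K97E cells, against 219 and 205 TPM in WT cells. The K97E libraries were the higher ones as deposited, but the groups overlapped once scaled. Its log2 fold change was 0.03 (SE 0.10, 95% interval -0.21 to 0.27), with a limma adjusted p of 0.988. It turned negative without WT replicate 2 (-0.023) and without K97E replicate 2 (-0.032). The 11-exon transcript ENSMUST00000108658 carried 68.4% and 67.7% of Trp53 in K97E cells, against 66.9% and 66.1% in WT cells.

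Mdm2 (ENSMUSG00000020184; GRCm39 chromosome 10, 117524780 to 117546663, minus strand) stood at 185 and 149.7 TPM in K97E cells, against 165 and 173 TPM in WT cells. Both WT libraries lay between the K97E libraries. The log2 fold change was -0.08 (SE 0.11, 95% interval -0.36 to 0.20), and it was 0.04 without K97E replicate 2. The transcripts of Mdm2 differed most between the K97E libraries themselves. ENSMUST00000020408, a 12-exon transcript, held 7.57% and 29.5% of Mdm2 in K97E cells, against 7.64% and 9.77% in WT cells. ENSMUST00000105263, also of 12 exons over the same span, held 30.4% and 13.7% in K97E cells, against 26.4% and 26.6% in WT cells. K97E replicate 2 thus stood apart on this pair, whose reads StringTie divides by a model.

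Mdm4 (ENSMUSG00000054387) stood at 46.8 and 46.0 TPM in K97E cells, against 52.4 and 49.2 TPM in WT cells. Both K97E libraries were lower, by a log2 fold change of -0.19 (SE 0.09, 95% interval -0.41 to 0.03) with a limma adjusted p of 0.965. Its leading transcript, ENSMUST00000188090, held 65.9% and 65.1% of the gene in K97E cells, against 60.5% and 64.8% in WT cells. Exon by exon the leading transcript was uneven: of its 11 exons 4 had lower and 2 had higher coverage in both K97E libraries. Ccng1, cyclin G1, which brings a phosphatase to Mdm2, stood at 358 and 288 TPM in K97E cells, against 297 and 305 TPM in WT cells. The K97E libraries enclosed the WT libraries, and the log2 fold change was 0.04 (SE 0.12, 95% interval -0.25 to 0.33), or -0.09 without K97E replicate 1. Trp53inp1, a stress-induced partner of p53, had a log2 fold change of -0.02. Within a library, the ratio of Mdm2 to Trp53 was 0.838 and 0.654 in K97E cells, against 0.754 and 0.843 in WT cells. The ratio of Mdm4 to Mdm2 was 0.253 and 0.307 in K97E cells, against 0.317 and 0.285 in WT cells, and both ratios overlapped between the groups.

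Of the 8 members of arrest and growth control, 3 were higher and 5 lower in K97E cells by sign, with a median of -0.14. The 3 Gadd45 genes, which encode small stress proteins that bind cell cycle and kinase partners, were lower in both K97E libraries on the scaled values, where 16.8% of all genes were, and none of the 3 passed the test. Gadd45a (ENSMUSG00000036390; GRCm39 chromosome 6, 67012080 to 67014441, minus strand) stood at 159.6 and 152 TPM in K97E cells, against 172 and 172 TPM in WT cells. The WT libraries were nearly equal and both K97E libraries lay below them, at a log2 fold change of -0.20 (SE 0.08, 95% interval -0.41 to 0.01). Its limma p was 0.057 unadjusted and 0.965 adjusted. Of the 4 exons of its leading transcript, 3 had lower coverage in both K97E libraries. Gadd45g and Gadd45b each had a log2 fold change of -0.14, and Gadd45g overlapped as deposited.

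Plk2, a polo-like kinase of the stress response, stood at 71.3 and 54.1 TPM in K97E cells, against 64.6 and 82.2 TPM in WT cells. The groups overlapped, and the log2 fold change was -0.29 (SE 0.17), or -0.46 without WT replicate 1 and -0.11 without WT replicate 2. Its relative Plk3 stood at -0.18 on the same scale. Zmat3, an RNA-binding zinc finger protein, stood at 27.5 and 24.6 TPM in K97E cells, against 22.7 and 23.0 TPM in WT cells, so that both K97E libraries were higher (log2 fold change 0.13). Btg2, an antiproliferative cofactor of mRNA deadenylation, had 0.07 and Ccng2, cyclin G2, had 0.02, and both overlapped between the groups.

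Among the apoptosis members Fas stood furthest from 0, on the low side, and Phlda3 and Bax on the high side. The role held 11 members, of which 9 were tested, 5 higher and 4 lower by sign, with a median of 0.02. Fas (ENSMUSG00000024778; GRCm39 chromosome 19, 34268066 to 34305172, plus strand) encodes the death receptor that starts the extrinsic pathway. It stood at 30.3 and 26.4 TPM in K97E cells, against 38.5 and 46.1 TPM in WT cells. Both K97E libraries lay below both WT libraries, with a gap larger than the distance between libraries of either group. The group means were 28.4 ± 2.8 TPM in K97E cells and 42.3 ± 5.3 TPM in WT cells (SD, n = 2 each).

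The log2 fold change of Fas was -0.62 (SE 0.12, 95% interval -0.92 to -0.32), with a limma p of 0.0027 unadjusted and 0.965 adjusted. Among 14 alternatives its lowest adjusted p in limma, 0.0839, came with crossed replicate numbers as a block, a setting chosen after seeing the data. Under these 14 the log2 fold change ran between -0.75 (without WT replicate 1) and -0.50 (without WT replicate 2). The unadjusted p was under 0.05 in each, but the 4 that leave out a library take the spread from the group with 2 libraries and assume that the lone library varies alike. An estimated 2338 and 1910 reads lay on Fas in K97E cells, against 2366 and 3316 in WT cells. The difference was spread along the gene. Of the 9 exons of its leading transcript ENSMUST00000025691, 8 had lower coverage in both K97E libraries, the ratios of group means lying between 0.605 and 0.728 over all 9. The remaining exon was the first, with a coverage of 8.18 and 6.89 in K97E cells, against 7.81 and 12.9 in WT cells. ENSMUST00000025691 stood at 18.01 and 18.8 TPM in K97E cells, against 25.6 and 28.8 TPM in WT cells. The 10-exon transcript ENSMUST00000235709 stood at 9.65 and 5.82 TPM in K97E cells, against 10.1 and 13.8 TPM in WT cells. Both were lower in both K97E libraries, and the share of the leading transcript overlapped between the groups.

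**Figure D3:**
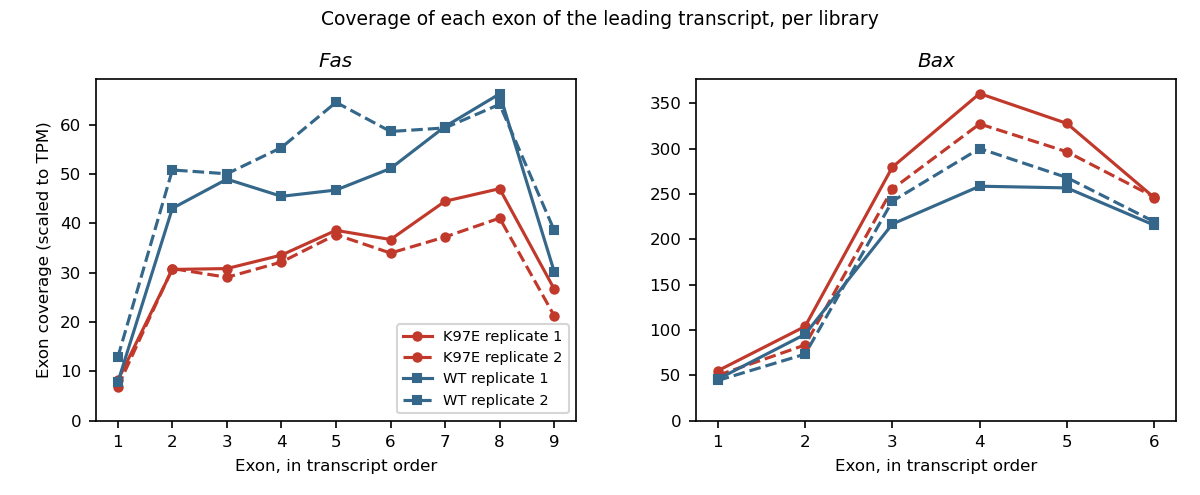
Mean coverage of each exon of the leading transcript of Fas (9 exons) and Bax (6 exons), in transcript order, with coverage scaled per library as TPM is, for K97E (circles) and WT libraries (squares). The K97E lines run below the WT lines from exon 2 of Fas onwards, and above them in Bax at 5 of 6 exons.

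Bax (ENSMUSG00000003873; GRCm39 chromosome 7, 45111121 to 45116322, minus strand), the pore-forming effector of the mitochondrial pathway, stood at 215 and 195 TPM in K97E cells, against 172 and 174 TPM in WT cells. Both K97E libraries were higher, with means of 205 ± 14 TPM in K97E cells and 173 ± 1.2 TPM in WT cells (SD, n = 2 each). Bax had a log2 fold change of 0.19 (SE 0.09, 95% interval -0.03 to 0.41), with a limma adjusted p of 0.965. Of the 6 exons of its leading transcript 5 had higher coverage in both K97E libraries, and the ratios lay between 1.11 and 1.23. The ratio of Bax to Mcl1, a survival protein that restrains it, was 2.29 and 2.31 in K97E cells, against 1.92 and 1.97 in WT cells. The exact permutation test gave p = 0.33, the smallest that 2 against 2 libraries allow. The ratios of Bax to Bcl2 (39.6 and 53.3 in K97E cells, against 46.9 and 44.5 in WT cells) and to Bcl2l1 (2.64 and 2.81 in K97E cells, against 2.86 and 2.35 in WT cells) overlapped between the groups.

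Phlda3, a lipid-binding repressor of Akt signalling, stood at 240.3 and 206 TPM in K97E cells, against 159 and 201 TPM in WT cells. Both K97E libraries were higher, but K97E replicate 2 lay only just above WT replicate 2. Its log2 fold change was 0.26 (SE 0.14, 95% interval -0.10 to 0.61; limma adjusted p = 0.965), and it rested on WT replicate 1: 0.08 without that library and 0.43 without WT replicate 2. Bbc3, the BH3-only protein Puma, stood at 9.73 and 10.1 TPM in K97E cells, against 8.83 and 9.17 TPM in WT cells. It did not overlap as deposited and overlapped once scaled, at a log2 fold change of 0.08. Aen, a nuclease of apoptotic cells, stood at -0.17 and Pidd1, the scaffold of the PIDDosome, at -0.10 on this scale. Apaf1, the core of the apoptosome, stood at 0.05, Ei24, a protein of the endoplasmic reticulum, at 0.02, and Eda2r, a receptor of the TNF family, at -0.03.

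The division of members between their transcripts differed between the groups about as often as it did over all genes. Of 17 members with a mean of at least 5 TPM and at least 2 transcripts that hold 10% or more of the gene in a library, 2 (11.8%; Aen and Pidd1) had a transcript whose share differed by at least 20 percentage points without overlap, beside 8.71% of the 5683 such genes. No test was run on these shares. These 2 were described after their values were seen, and the split of reads between overlapping transcripts comes from StringTie's model. For Aen, ENSMUST00000107425 held 67.4% and 75.9% of the gene in K97E cells, against 51.1% and 34.6% in WT cells. The shorter ENSMUST00000107421, of 2007 bases beside 4956, held 29.7% and 18.4% in K97E cells, against 47.5% and 65.0% in WT cells. For Pidd1, the 16-exon transcript ENSMUST00000026580 held 1.53% and 5.64% of the gene in K97E cells, against 27.2% and 38.0% in WT cells. The 15-exon ENSMUST00000131980 held 54.4% and 31.9% in K97E cells, against 13.01% and 16.0% in WT cells.

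**Figure D4:**
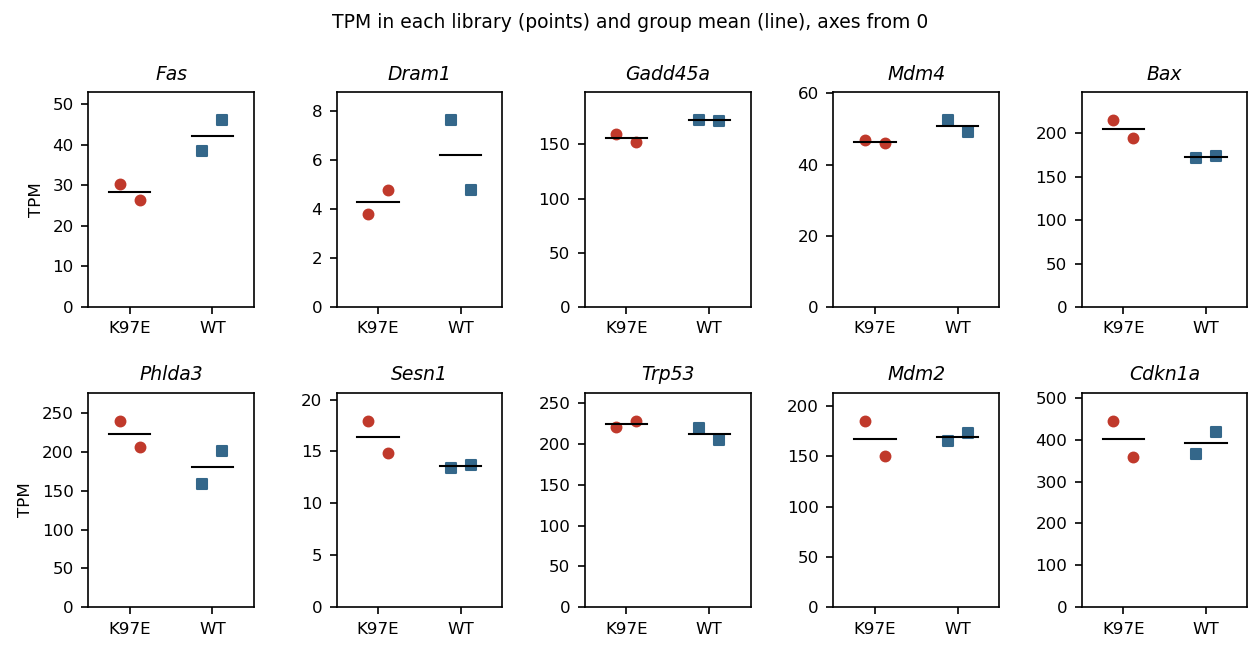
TPM as deposited in each library (points, 2 for each group) and the group mean (line), on axes from 0, for 9 members and for Cdkn1a, a p53 target outside the list. In Fas, Gadd45a and Mdm4 both K97E points lie below both WT points; in Bax, Phlda3 and Sesn1 they lie above; the groups touch or cross in Dram1, Mdm2 and Cdkn1a. In Trp53 the K97E points lie just above the WT points as deposited, and the groups overlap once scaled.

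The 4 members of DNA repair and nucleotide supply had log2 fold changes between -0.11 and 0.01, and none passed the test. Polk, a polymerase that copies past damaged bases, stood at 28.0 and 24.4 TPM in K97E cells, against 26.4 and 26.3 TPM in WT cells. The WT libraries lay between the K97E libraries as deposited, and the log2 fold change was -0.07 (SE 0.10, 95% interval -0.31 to 0.17). Rrm2b, a subunit of ribonucleotide reductase, stood at 0.01 and Xpc, which recognises distorted DNA, at -0.07. Ddb2 is a partner of Xpc in the recognition of ultraviolet damage. It stood at 9.76 and 6.77 TPM in K97E cells, against 7.54 and 9.56 TPM in WT cells, which overlap. Its log2 fold change of -0.11 had a wide 95% interval, from -0.60 to 0.38 (SE 0.20). Exons of Ddb2 overlap those of Acp2 on the opposite strand, which averaged 29.8 TPM, and the recorded command has no strand option, so the value of Ddb2 is uncertain.

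The 6 members of metabolism, autophagy and stress were split, 3 higher and 3 lower by sign. Sesn1, a sestrin that restrains mTORC1 under stress, stood at 17.97 and 14.8 TPM in K97E cells, against 13.4 and 13.7 TPM in WT cells. Both K97E libraries were higher and differed more from each other than the WT libraries did. Sesn1 had a log2 fold change of 0.20 (SE 0.11, 95% interval -0.09 to 0.49; limma adjusted p = 0.965). Its relative Sesn2 stood at 0.03 and overlapped. Dram1, a lysosomal membrane protein of autophagy, stood at 3.82 and 4.78 TPM in K97E cells, against 7.64 and 4.77 TPM in WT cells. K97E replicate 2 and WT replicate 2 were almost equal, and WT replicate 1 stood apart. The log2 fold change of -0.51 (SE 0.25; limma adjusted p = 0.965) was -0.20 without WT replicate 1 and -0.82 without WT replicate 2.

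Ddit4, also called Redd1, an inhibitor of mTORC1, stood at 80.7 and 69.6 TPM in K97E cells, against 58.9 and 82.0 TPM in WT cells. The WT libraries enclosed the K97E libraries. Its log2 fold change was 0.05 (SE 0.17, 95% interval -0.37 to 0.47), and it was -0.19 without WT replicate 1 and 0.29 without WT replicate 2. Tigar, a fructose bisphosphatase, stood at -0.07 and Gdf15 at -0.10, and Gdf15 lay under 1 TPM in every library.

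Other genes of the pathway were read in 3 further lists, in which 0 genes passed an adjusted p of 0.05 in limma. Of the 20 kinases, cofactors and relatives of p53, 17 were tested, 7 higher and 10 lower by sign, and 0 had an unadjusted p under 0.05. Cdkn2a, whose Arf product blocks Mdm2, was listed at 0 in all 4 libraries, and Trp63 and Trp73 fell below the filter. Of 21 further p53 targets 19 were tested, 11 higher and 8 lower, again 0 at an unadjusted p under 0.05. Cdkn1a, the cell cycle inhibitor p21 and the best known arrest target, stood at 446 and 359.5 TPM in K97E cells, against 365 and 418 TPM in WT cells. The groups overlapped fully, and the log2 fold change was -0.02 (SE 0.13, 95% interval -0.35 to 0.31), with the opposite sign at 0.03 with TPM as deposited.

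Of 20 genes of the apoptosis machinery 18 were tested, 12 higher (66.7%, beside 49.5% of all genes) and 6 lower by sign. In limma 1 of them, Bok, was higher at an unadjusted p under 0.05 (0.029), beside 1.14% of all genes. None had an adjusted p under 0.05. Bok, a Bcl-2 family effector, stood at 18.5 and 17.7 TPM in K97E cells, against 8.89 and 13.97 TPM in WT cells. Both K97E libraries were higher, and WT replicate 1 was the lowest. The log2 fold change of 0.62 (SE 0.21; limma adjusted p = 0.965) was 0.30 without WT replicate 1 and 0.93 without WT replicate 2. Fasl, the ligand of Fas, was at most 0.039 TPM in any library.

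For most members the libraries of at least 1 group differed from each other by more than the groups did. The median size of the difference between groups was 0.09 on the log2 scale, beside 0.12 between the K97E libraries and 0.14 between the WT libraries. In 7 of 32 members (21.9%, beside 19.8% of all genes) the difference between groups was larger than both. The libraries of a group also differed in the same order in many members. K97E replicate 1 was above K97E replicate 2 in 22 of 32 members (68.8%, beside 50.1% of all genes). WT replicate 2 was above WT replicate 1 in 22 of 32 (68.8%, beside 50.3% of all genes). Both held in 19 members (59.4%), beside 30.6% of all genes, an orientation chosen after the values were seen. Btg2, Ddit4, Plk2, Ddb2 and Phlda3 had this order. The reverse in both groups held in 7 of 32 members, beside 4917 of all 16304 genes. Among these 7 were Trp53, Mdm4, Dram1 and Gdf15.

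**Figure D5:**
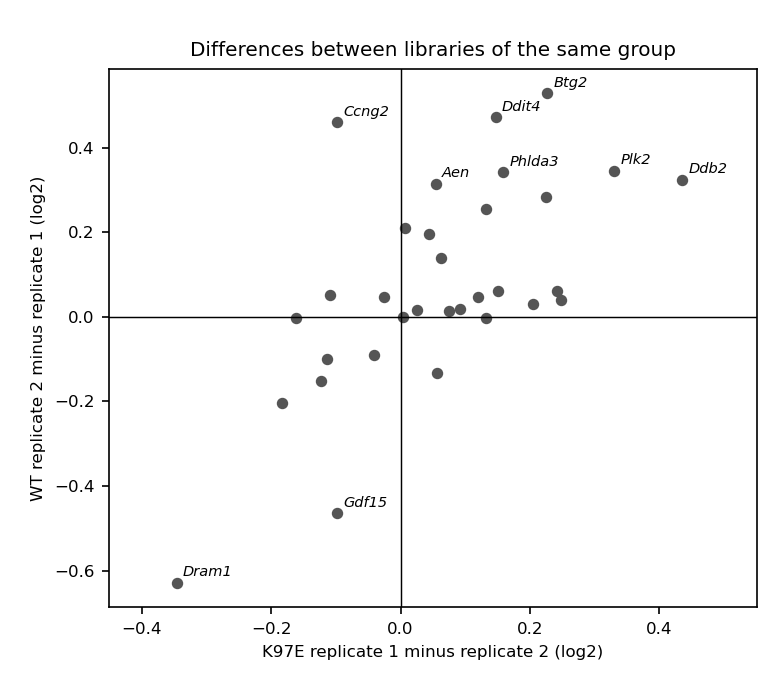
Log2 difference between K97E replicates 1 and 2 (x axis) against that between WT replicates 2 and 1 (y axis), 1 point for each of 32 tested members. The upper right part holds 19 members, among them Btg2, Plk2 and Ddb2, and Dram1 lies alone at the far lower left.

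The cell type labels were checked with marker genes. Of 8 myoblast markers 7 were tested, with a summed level of 730.2 and 746 TPM in K97E cells, against 732 and 872 TPM in WT cells, and Pax7, a satellite cell factor, was at or near 0. By sign 2 of the 7 were higher in K97E cells (Itga7, log2 fold change 0.01, and Cdh15, 0.03) and 5 lower. On the scaled values Itga7, Cdh15 and Myf5 overlapped between the groups, and Des, Myod1, Chrna1 and Vcam1 were lower in both K97E libraries (4 of 7, beside 16.8% of all genes). At an unadjusted limma p under 0.05, 2 of the 7 were lower, beside 2.54% of all genes. These were Chrna1, at 40.2 and 41.3 TPM in K97E cells, against 49.8 and 51.8 TPM in WT cells, and Vcam1, at 45.8 and 52.6 TPM in K97E cells, against 63.8 and 64.7 TPM in WT cells. Both had a limma adjusted p of 0.965. The part of the myoblast genes in the values of the p53 genes was not tested. Summed leukocyte markers stood at 6.04 and 4.22 TPM in K97E cells, against 4.83 and 7.23 TPM in WT cells. Endothelial, epithelial and neural markers summed to at most 20.7, 0.393 and 7.12 TPM in any library. Most of the endothelial sum was Cdh5, at 17.1 and 18.8 TPM in K97E cells, against 20.3 and 17.8 TPM in WT cells. The myoblast sum came mostly from Des and Itga7. Myod1 stood below Cdh5, at 4.56 and 4.67 TPM in K97E cells, against 4.96 and 4.94 TPM in WT cells.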

How the data were processed

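RNA-seq of 4 libraries was analysed from transcript files, 1 per library, and the genotype labels gave the groups. HISAT2, FastQC, SAMtools, DESeq2, StringTie 2.1.7 and the build GRCm39 are named in the submitters' processing notes, with no role given for DESeq2, which played no part in these tests. Per the file headers, StringTie ran on the Ensembl 104 annotation, for annotated transcripts only and with no strand option, although per the labels' protocols the library kit was stranded. The deposited files give TPM, FPKM and coverage for 142434 transcripts, estimated by the authors with StringTie, and no read counts. Reads here are coverage times length over the read length of 100, so no counting interval was computed.

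TPM was summed per gene and divided by median-of-ratios factors, and log2 was taken after adding 0.5. The 16304 genes that averaged 0.5 TPM or more were tested with limma 3.58.1 in R 4.3.3 (lmFit, eBayes with trend, a median of 5.54 total degrees of freedom). Tests were two-sided, and Benjamini-Hochberg adjusted p-values under 0.05 were called. Printed TPM are as deposited, and overlap of groups is on scaled values unless stated. Exon coverage was summed over transcripts that hold the exon and scaled by the ratio of TPM to coverage of its library. For the first and last exon all exons of the gene that overlap it were summed, whatever their ends. Those values are therefore not the same measure as for inner exons.

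The members and lists were chosen with earlier results of these data known. Named with values in every library were Trp53, Mdm2, members at an unadjusted p under 0.05, non-overlapping members at a log2 fold change of at least 0.2 in size, the most abundant member of each role, Cdkn1a, and genes of other lists at an unadjusted p under 0.05. Bax, Mdm4, Plk2, Zmat3, Bbc3 and Ddb2 were described after their values were seen. Promoter windows came from RefSeq tables of GRCm38.p6, whereas gene and exon positions are in GRCm39, as in the files. The alternatives tried changed the pseudocount, the filter, the scaling, the unit (FPKM) or the eBayes trend, or left out 1 library at a time. Others added a replicate block, as numbered or, after the data were seen, with the numbers crossed between the groups. Python 3.11.15 with pandas 2.3.3, scipy 1.17.1 (permutation tests) and matplotlib 3.10.9 was used.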

Additional observations from a re-analysis of the deposited data

How the results depend on the processing

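With 2 libraries a group and estimated levels without counts, small differences could not be told from the spread between libraries: the median SE of the members was 0.11 on the log2 scale, and 13 of the tested members averaged under 20 TPM. In all 14 alternatives 0 of the p53 pathway members passed an adjusted p of 0.05. Over all genes the number called was 1 in the reported analysis, 0 with no filter on low genes, 2 with TPM as deposited, 2 with eBayes without trend, and 0 to 14 with 1 library left out, the 14 without WT replicate 1. The labels do not say whether same-numbered libraries of the groups belong together. Their deviations from the group means correlated at -0.137, and with the replicate number as a block 0 genes were called. With 4 libraries these values cannot decide whether a batch was shared. Crossing the numbers, an alternative chosen after seeing the data, gave 30 calls, none of them a member. The members' median log2 fold change, -0.05, was 0.0054 with TPM as deposited, where the median over all genes was 0.052. With 1 library left out the members' median ran between -0.11 and -0.016. Members lower at an unadjusted p under 0.05 numbered 1 (beside 2.54% of all genes), but 3 with no filter. Higher ones numbered 0 (beside 1.14%), but 1 with quantile normalization, and the crossed numbers gave 1 higher and 3 lower. Leaving out either WT library also raised such counts, which are not given because the WT group then held 1 library. The shares of all genes under these other settings are not given here, so the counts cannot be read against them. The sign of 5 named genes turned. Cdkn1a stood at 0.034 with TPM as deposited, 0.067 with quantile normalization, 0.0050 with FPKM and between -0.15 and 0.10 with 1 library left out. Leaving out 1 library moved Ccng1 between -0.086 and 0.16, Ddit4 between -0.19 and 0.29, Mdm2 between -0.20 and 0.040 and Trp53 between -0.032 and 0.084. The cause was not tested for any of these. Leaving out transcripts under a mean of 0.1 TPM moved the mean share of the leading transcript to 64.2% for Mdm4, against 64.1% with all transcripts, and for Trp53, Mdm2 and Fas by less than that.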
